A study of Homo sapiens with 32 samples.

Results

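The genes described here encode proteins that assemble on DNA replication origins and that act at the replication fork, 45 genes in all. They were the origin recognition complex genes ORC1 to ORC6, the licensing genes CDC6, CDT1 and GMNN, and the helicase genes MCM2 to MCM7. With them came MCM8 and MCM9, relatives of the helicase genes, MCM10, and the helicase activation genes CDC45, GINS1 to GINS4, CDC7 and DBF4. The fork genes were PCNA, RFC1 to RFC5, RPA1 to RPA3, POLA1, POLA2, PRIM1, PRIM2, POLD1, POLD2, POLD3, POLE, POLE2, FEN1 and LIG1. Their promoter windows were chosen by position alone, as the windows of the deposited count table with a centre within 500 bp of a GENCODE transcript start of one of these genes in hg38. The rule found 101 of the 212358 windows, each 401 bp long, and it found at least 1 for every gene. A single window was found at 13 genes and the largest number, 5, at CDC45. No window belonged to several of the 45 genes, but 35 of the 101 overlapped another of them and share counts with it.

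Chromatin accessibility was measured by ATAC-seq, in which the transposase Tn5 inserts adapters into open DNA, in HEK293T, a line from human embryonic kidney. All libraries came from 1 clone, HEK_CloneZD29, in which a degron tag was attached to the zinc finger factor ZNF143, so the controls carry the tag too. The control cells of the libraries compared here received DMSO, and the other cells received 50 nM dTAGV-1, a compound that brings tagged proteins to a ubiquitin ligase, for 30 minutes. The treatment label of the controls reads DMSO, while the protocol text describes them as having no treatment. Counts cover replicates 9 to 16 of each group, 8 control and 8 dTAGV-1 libraries, while replicates 1 to 8 contribute only a list of peak summits with no value per library. The labels do not say whether replicates are separate cultures, so the p-values measure only the spread between these libraries, which may be technical. ZNF143 protein was not analysed here.

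Replication origins are prepared in the G1 phase, when the origin recognition complex, CDC6 and CDT1 load the ring-shaped MCM2-7 helicase onto DNA, and geminin, the product of GMNN, holds CDT1 in check afterwards. In S phase the kinase of CDC7 and DBF4 and the binding of CDC45 and the GINS complex turn the loaded ring into a moving helicase, behind which polymerase alpha-primase, the PCNA clamp and its RFC loader, the RPA complex and polymerases delta and epsilon copy the strands. Genes of this kind are known targets of E2F factors and are active in dividing cells such as this line, and ZNF143 is known to bind promoters of many widely expressed genes.

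Library totals ran from 2275856 to 11418578 counts in control and from 3373219 to 13671039 in dTAGV-1. Control replicate 12 had the lowest total and the flattest signal, with 30.9% of its counts falling in the decile of windows with most counts. The share was 37.7% in dTAGV-1 replicate 12 and 40.2% in dTAGV-1 replicate 11, higher but still low in control replicate 11, and 46.3% to 47.3% in the other 12 libraries. Promoter windows of 5 of 6 genes listed as marks of HEK293T were tested, those of PAX2, NEFL, NEFM, CDH2 and VIM, and the only window of LHX1 was below the filter on low counts. Of 9 genes listed for blood, liver and muscle, 6 had no window (PTPRC, CD3E, SPI1, ALB, APOA1 and TTR). The window of MYOD1 measured 2.90 log2 CPM in control and that of MYOG 0.54. The strongest windows of the HEK293T genes measured 3.36 (PAX2), 3.50 (NEFL), 3.01 (NEFM), 5.27 (CDH2) and 3.92 (VIM), so NEFM was close to MYOD1. The strongest window of ZNF143 itself had a log2 fold change of -0.05.

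Sequences that bear on the results came from hg38 and are given first. The only window of these genes that was called changed lies in the beginning of GINS3, and the following 300 bases, on the minus strand at chr16:58392724-58393023, are the larger part of it. Capitals mark the letters ACTACA followed, after any 2 bases, by TCCC. They resemble the first part of the longer element known to be bound by ZNF143, are called the ACTACA element here, and were chosen for the search after the sequences of called windows had been seen.
GINS3 lower window: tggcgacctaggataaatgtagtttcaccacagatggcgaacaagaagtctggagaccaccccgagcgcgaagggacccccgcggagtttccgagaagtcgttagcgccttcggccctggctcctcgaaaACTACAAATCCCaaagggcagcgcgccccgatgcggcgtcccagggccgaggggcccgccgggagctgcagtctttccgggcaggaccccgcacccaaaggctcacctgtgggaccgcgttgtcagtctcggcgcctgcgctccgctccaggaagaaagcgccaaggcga

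The same element occurred in the windows of 3 more of the 45 genes, shown here as 30 bases each so that they can be set beside GINS3. They lie at chr11:61792657-61792686 (FEN1), chr12:56752425-56752454 (PRIM1) and chr6:52285054-52285083 (MCM3), all on the minus strand, with the element in capitals.
FEN1 element: cgcaggACTACAAGTCCCtcaatgccactt
PRIM1 element: gtgggaACTACAATTCCCggcggccccggc
MCM3 element: gagaacACTACAACTCCCagaacgcaatgc

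The shorter ZNF143 core (CCCA, then any base, then A or C, then ATGC, read on either strand and at most 200 bp from the centre) was found in 3 windows. It lies at chr19:48170668-48170697 on the minus strand upstream of LIG1, at chr22:19479439-19479468 on the plus strand upstream of the canonical CDC45 start, and at chr12:56751425-56751454 on the plus strand inside PRIM1, and capitals mark the core.
LIG1 core site: gcgtccacctCCCACAATGCcccgcgccca
CDC45 core site: gactacactaCCCACAATGCactacccaga
PRIM1 core site: aggcatgcgaCCCACCATGCccagataatt

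Letters typical of E2F sites were found in more of these windows than those of ZNF143, and 4 stretches show them. They lie at chr22:35399930-35399959 and chr22:35400125-35400154 at MCM5 on the plus strand, at chr2:135876517-135876600 at MCM6 on the minus strand, and at chr20:5119338-5119385 at PCNA on the minus strand. Capitals mark TTTGGCGC, TTTCCCGC, TTTGCCGC or TTTCGCGC on either strand, merged where they overlap.
MCM5 E2F site 1: ccagccagaagTTTCGCGCCAAAttgttcc
MCM5 E2F site 2: cgcctcttgttTTTCCCGCgaaactcggcg
MCM6 E2F stretch: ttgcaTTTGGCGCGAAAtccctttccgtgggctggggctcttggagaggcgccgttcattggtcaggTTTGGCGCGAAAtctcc
PCNA E2F stretch: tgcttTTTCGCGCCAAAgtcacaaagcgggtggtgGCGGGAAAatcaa

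The promoters of replication genes were among the open promoters of these cells. For each gene the tested window with the highest mean over the 16 libraries was taken as its lead window, and 39 of the 45 lead windows had their centre within 150 bp of a transcript start. Levels are log2 CPM, the logarithm of counts scaled by library size, and since every window has the same length they compare per length. In control, 40 of the 45 lead windows lay above the 75th percentile of all tested promoter windows and only those of RFC1 and CDT1 lay below the median. The median control level of the 100 tested windows was 4.15 log2 CPM, against 2.98 for all tested promoter windows and 1.42 for all tested windows. These levels are a description, since lead windows were chosen for being high. The mean count per library of the 100 windows ran from 12.4 to 760.

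MCM3, which encodes a subunit of the MCM2-7 ring, had the highest lead window of all 45 genes, on chromosome 6 from 52284744 to 52285144, with its centre at -202 bp from the canonical start. Control libraries ranged from 5.53 through a median of 6.62 to 6.74 log2 CPM, and dTAGV-1 libraries from 5.66 through 6.55 to 6.62. The groups overlapped, and the lowest control value was that of replicate 12. The next windows were those of MCM9, at 6.24 ± 0.50 log2 CPM in control (SD, n = 8), and of RPA3, at 6.24 ± 0.45. MCM3 was above MCM9 in every control library. It was above RPA3 in all of them but replicate 11, where MCM3 measured 6.20 and RPA3 6.30. These differences were not tested. The MCM9 and RPA3 windows lie away from the canonical starts of their genes, at starts of other annotated transcripts within 500 bp of starts of ASF1A and UMAD1. RPA2, which encodes another subunit of the single-strand binding complex, followed at 6.04 ± 0.28.

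At the other end stood RFC1, the gene of the large subunit of the clamp loader, on chromosome 4 from 39365931 to 39366331. It measured 1.31, 2.43 and 2.73 log2 CPM in control (lowest, median and highest) and 2.03, 2.53 and 2.76 in dTAGV-1. CDT1, which encodes the licensing factor that geminin inhibits, had its lead window on chromosome 16 from 88803529 to 88803929, with 1.99, 3.02 and 3.45 log2 CPM in control and 2.12, 3.24 and 3.66 in dTAGV-1. The lead window of GINS3 was next, at 3.33 ± 0.15 log2 CPM in control (SD, n = 8). The means of the lead windows of MCM3 and RFC1 lay 4.17 log2 units apart.

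**Figure D1:**
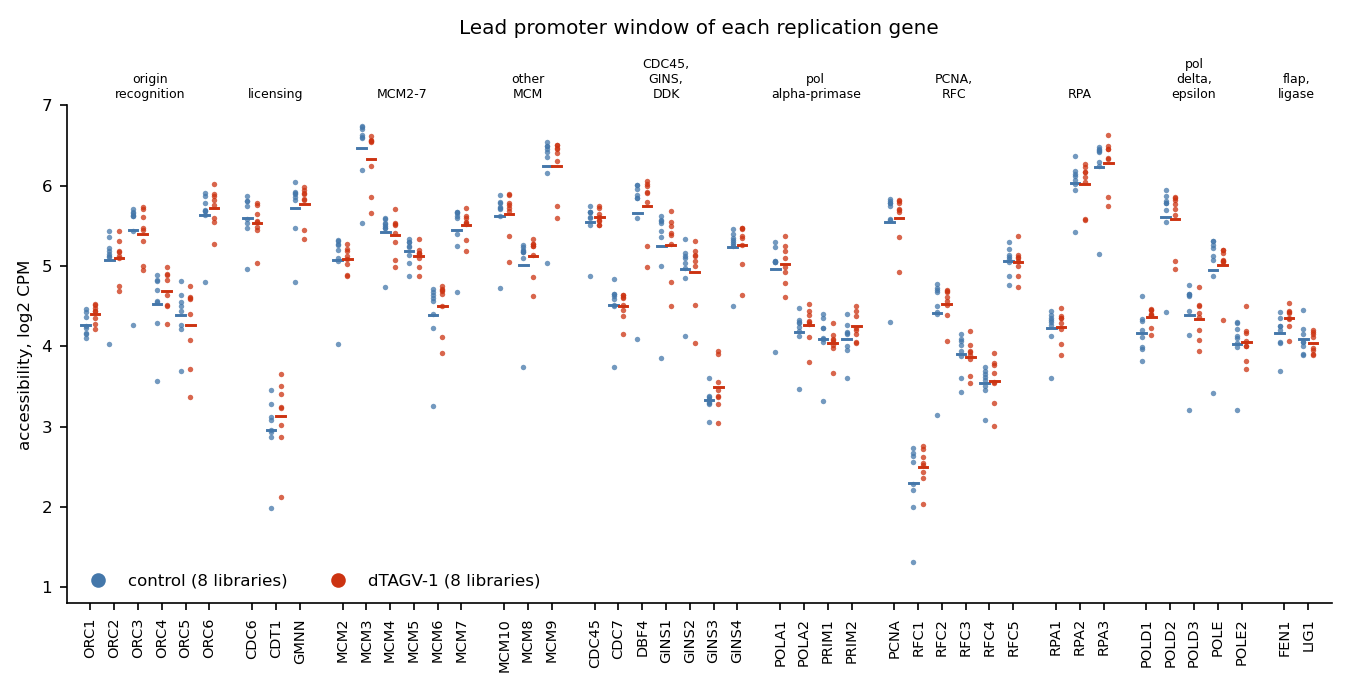
Accessibility in log2 CPM (vertical axis) at the lead window of each of the 45 genes, grouped by role along the horizontal axis, with 1 point per library, control in blue and dTAGV-1 in red, and a bar at the mean of 8 libraries. The points of both groups overlap at every gene, the levels run from RFC1 and CDT1 at the bottom to MCM3 at the top, and the lowest control point is often that of replicate 12.

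Within role groups the levels were uneven. The MCM2-7 ring had lead windows from 4.39 log2 CPM (MCM6) to 6.47 (MCM3) in control, with a median of 5.31. The origin recognition genes ran from 4.27 (ORC1) to 5.63 (ORC6), and the licensing genes had 5.60 (CDC6), 5.72 (GMNN) and 2.96 (CDT1). The genes of helicase activation ran from 3.33 (GINS3) to 5.66 (DBF4), with 5.54 at CDC45. Among the clamp and its loader, PCNA stood at 5.55 while RFC2, RFC3 and RFC4 measured 4.42, 3.90 and 3.54. The polymerase alpha-primase genes measured 4.97 (POLA1), 4.18 (POLA2), 4.10 (PRIM1) and 4.09 (PRIM2), the last 3 within the spread of their libraries.

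A lead window does not always belong to 1 gene. At 18 of the 45 genes another coding gene starts within 500 bp of its centre, such as AP4M1 at MCM7, TPRA1 at MCM2, VPS35 at ORC6, SLC25A40 at DBF4 and PXMP2 at POLE. Accessibility there cannot be assigned to either gene. At 5 genes (MCM9, GINS1, RPA3, PCNA and POLD3) the lead window lay over 5 kb from the canonical start, next to a start of ASF1A, ABHD12, UMAD1, CDS2 or LIPT2. A tested window within 500 bp of the canonical start existed for 44 of the 45 genes, RPA3 being the exception. The summit list of replicates 1 to 8 had a summit in 81 of the 101 windows, or 80.2%, against 72.1% of all promoter windows, and in 42 of the 45 lead windows.

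The comparison of dTAGV-1 with control asks which of these promoters open or close within minutes of the degrader. One window fell, in GINS3, and 0 rose. In edgeR's quasi-likelihood test, adjusted by Benjamini-Hochberg over all 185040 tested windows, 1 of the 100 tested windows was called lower, or 1%. The background was 0.213% called lower over all tested windows and 0.561% over the 38119 tested promoter windows, so the call at 1 window of 100 is no result about the genes as a set. Called higher were 0 of 100, against 0.00108% of all tested and 0.00525% of promoter windows. Lower at an unadjusted p below 0.05 were GINS3 and LIG1, or 2%, against 1.55% of all tested and 2.09% of promoter windows, and 0 were higher, against 1.3% and 0.895%. DESeq2 also called 0 higher and had 1 at an unadjusted p below 0.05. The 100 windows had a median log2 fold change of 0.0053, against 0.0077 over all tested and 0.011 over promoter windows, and 48 of the 100 values were negative.

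Standard errors of the log2 fold change ran from 0.12 to 0.30 with a median of 0.15. The 4 largest, from 0.28 to 0.30, were at 1 window each of ORC4 and CDC45 and 2 of POLE, which also had the lowest counts, 12.4 to 16.2 per library on average. For the 99 windows not called, all 95% intervals excluded a halving and a doubling of accessibility, and 98 included 0. Changes within these intervals were not resolved by these 16 libraries. Without replicates 11 and 12 of both groups 2 windows were called lower, GINS3 and LIG1.

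**Figure D2:**
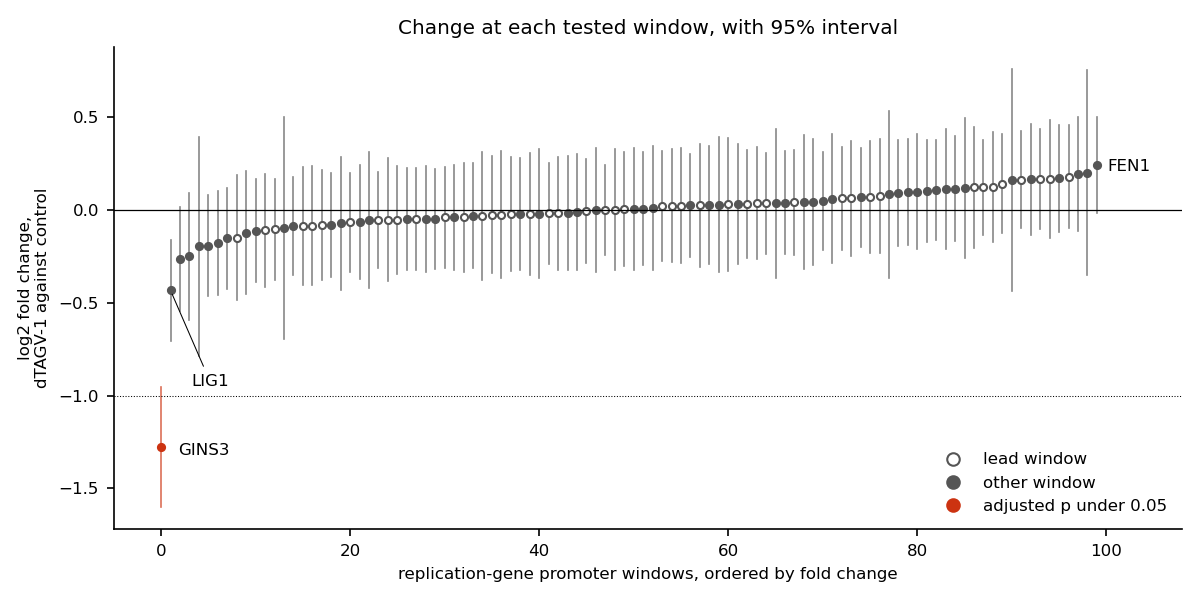
Log2 fold change of dTAGV-1 against control (vertical axis) at the 100 tested windows in order of size (horizontal axis), with 95% intervals from edgeR's fit, open circles for lead windows and the dotted line at a halving. GINS3 is at -1.28 and the other 99 windows lie between -0.43 (LIG1) and 0.24 (FEN1).

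GINS3 encodes a subunit of the GINS complex, which joins CDC45 and the MCM ring to form the moving helicase. The called window lies on chromosome 16 from 58392623 to 58393023, with its centre in an intron 352 bp downstream of the canonical start. Control libraries measured 3.14, 3.57 and 3.80 log2 CPM (lowest, median and highest of 8), from 23 counts in replicate 12 to 136 in replicate 10. The dTAGV-1 libraries measured 0.89, 2.38 and 2.76, from 13 counts in replicate 9 to 69 in replicate 15. The groups did not overlap, an arrangement with dTAGV-1 below found at 1 of the 100 windows, at 0.0713% of all tested windows and at 0.147% of promoter windows. The reverse was found at 0 of the 100, against 0.00324% and 0.00262%. Replicate 9 of dTAGV-1 lay apart from the other 7, which held 2.16 to 2.76. The log2 fold change was -1.28 (standard error, SE, 0.16; edgeR adjusted p = 1.21e-06), which leaves 41.3% of the control signal. Leaving out any 1 library kept it between -1.38 and -1.15.

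The window next to it, on chromosome 16 from 58392213 to 58392613, covers the GINS3 start and its centre lies 410 bp away. Its control level was 3.33 ± 0.15 log2 CPM and its dTAGV-1 level 3.49 ± 0.30 (SD, n = 8), a log2 fold change of 0.18 (SE 0.14, edgeR adjusted p = 1.00). The called window had 3.50 ± 0.22 log2 CPM in control, above the window over the start, and 2.22 ± 0.57 in dTAGV-1, below it. A further window 844 bp downstream of the start, outside the rule, had a log2 fold change of -0.40 (SE 0.24, unadjusted p = 0.106 by edgeR). The difference between the called window and the one over the start was tested per library. Control had 0.17 ± 0.19 and dTAGV-1 -1.27 ± 0.59 (SD, n = 8), a change of -1.44 on the log2 scale, and the groups did not overlap. The exact permutation test over the 12870 assignments gave a two-sided p of 0.000155, the smallest it can give, and 0.000233 after Benjamini-Hochberg adjustment over 3 such pairs of windows. These 3 pairs were chosen after their values had been seen, so the p-values describe them only.

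LIG1, which encodes the ligase that seals Okazaki fragments, had the next smallest p. Its window on chromosome 19 from 48170441 to 48170841 holds the ZNF143 core and lies at -297 bp from the canonical start, next to the start of ZSWIM9. Control libraries measured 3.56, 4.05 and 4.23 log2 CPM (lowest, median and highest) and dTAGV-1 libraries 3.13, 3.65 and 3.88. The groups overlapped, with 3 of 8 dTAGV-1 libraries below the lowest control library, which was replicate 12. The log2 fold change was -0.43 (SE 0.14), and it did not pass the test (edgeR adjusted p = 0.622, unadjusted 0.00233). It was called lower with a stricter filter and without replicates 11 and 12 of both groups, with edgeR adjusted p-values of 0.0321 and 0.0238 at log2 fold changes of -0.44 and -0.45. With a replicate block it was called lower as well, at an edgeR adjusted p of 0.0112. The dTAGV-1 library was below the same-numbered control library in 8 of 8 numbers, though the labels do not say that numbers mark pairs. Leaving out 1 library at a time gave -0.47 to -0.39 and adjusted p-values from 0.067 to 1.00.

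The lead window of LIG1, 255 bp away on chromosome 19 from 48170186 to 48170586, had a control level of 4.09 ± 0.18 log2 CPM and a dTAGV-1 level of 4.05 ± 0.13 (SD, n = 8), a log2 fold change of -0.05. The difference between the window with the core and this window was -0.10 ± 0.16 in control and -0.48 ± 0.16 in dTAGV-1, a change of -0.38. In this difference the groups nearly touched, the lowest control value being -0.3252 and the highest dTAGV-1 value -0.3253. At GINS3 the same values were -0.23 and -0.67. The exact permutation test on the LIG1 difference gave a two-sided p of 0.000155, adjusted over the 3 pairs 0.000233. The 2 windows overlap, so they share counts. This pair too was chosen after its values had been seen, so the permutation p-value describes it only.

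**Figure D3:**
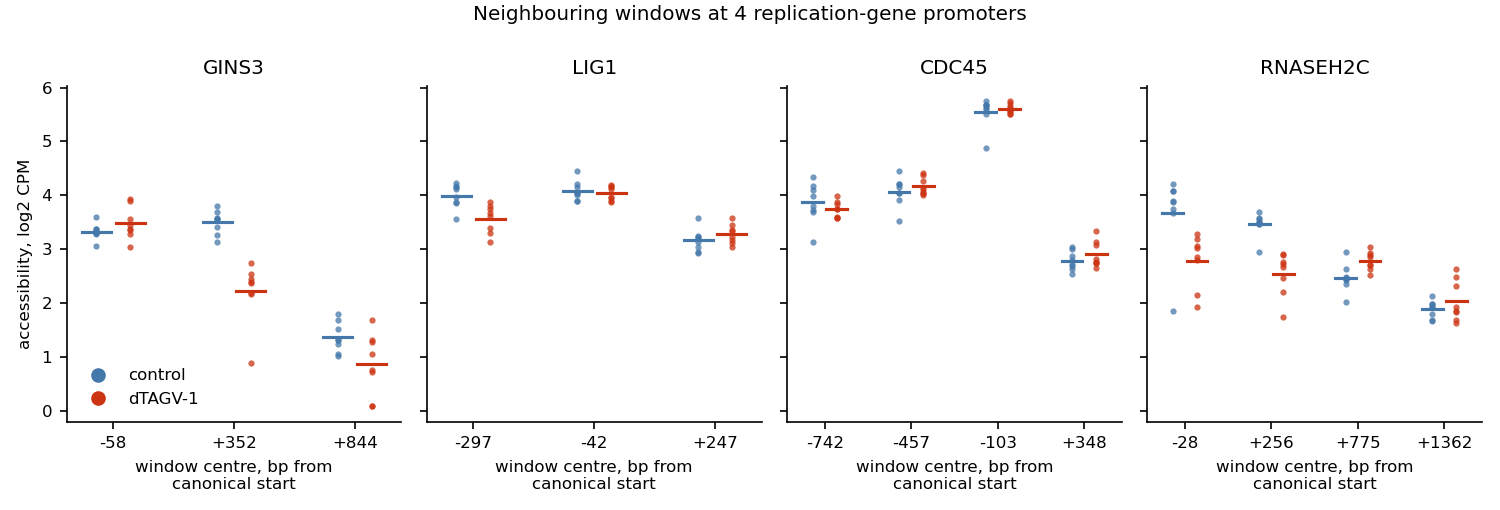
Accessibility in log2 CPM (vertical axis) at neighbouring windows of GINS3, LIG1, CDC45 and RNASEH2C by the distance of the window centre from the canonical start in bp (horizontal axis), with 1 point per library, control in blue and dTAGV-1 in red, and bars at the means of 8 libraries. At GINS3 the red points lie below all blue points only at +352 bp, at RNASEH2C they do so at +256 bp, and at CDC45 the groups overlap at every window.

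The other windows with a core gave values near 0. The CDC45 window with the core, on chromosome 22 from 19479263 to 19479663, lies at -457 bp from the canonical start, near that of UFD1. Its site also holds ACTACA, followed after 2 bases by ACCC in place of TCCC. For that letter it was not counted with the ACTACA element. The window measured 3.52, 4.11 and 4.45 log2 CPM in control and 4.01, 4.12 and 4.41 in dTAGV-1, and the groups overlapped throughout (log2 fold change 0.07, SE 0.13). The PRIM1 window with the core, in an intron on chromosome 12 from 56751191 to 56751591, measured 2.30, 2.56 and 2.72 in control and 2.03, 2.47 and 3.14 in dTAGV-1, a log2 fold change of 0.03 (SE 0.16). Its sign changed when single libraries were left out.

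Of the 4 windows with the ACTACA element, only that of GINS3 was called, and the log2 fold changes of the others were 0.24 at FEN1, -0.10 at PRIM1 and -0.15 at MCM3, with 95% intervals of -0.02 to 0.50, -0.38 to 0.17 and -0.49 to 0.19. FEN1 encodes the nuclease that trims flaps of Okazaki fragments. FADS2 and TMEM258 also start within 500 bp of the centre of the FEN1 window on chromosome 11 from 61792434 to 61792834. That window had the largest positive change of the 100. It measured 3.56, 3.89 and 4.03 log2 CPM in control and 3.83, 4.21 and 4.32 in dTAGV-1, with 5 of 8 dTAGV-1 libraries above the highest control library (edgeR adjusted p = 1.00, unadjusted 0.0684). Over the whole table, the element was in 280 of the 395 windows called lower, or 70.9%, and in 0.598% of all tested windows. Of the 1106 tested windows with the element 25.3% were called lower and the median log2 fold change was -0.38. The shorter core was in 2139 tested windows, of which 2.90% were called lower, with a median of -0.02. These shares are descriptions, since the longer element was chosen from called windows, that of GINS3 among them.

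The remaining windows singled out by the size of their p-values did not pass the test. ORC6, a subunit of the origin recognition complex, had 2.98, 3.48 and 3.63 log2 CPM in control and 2.49, 3.10 and 3.42 in dTAGV-1 at its intronic window on chromosome 16, 46689958 to 46690358. The groups overlapped, and the log2 fold change was -0.26 (SE 0.14, edgeR adjusted p = 1.00). ORC4 had 2.24, 3.55 and 3.94 in control and 3.30, 3.76 and 4.12 in dTAGV-1 at its window on chromosome 2 from 148020260 to 148020660, a log2 fold change of 0.19 (SE 0.15). The lowest of these values is again that of control replicate 12.

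By role, the counts were as follows. In the origin recognition complex 0 of 13 tested windows were called, with log2 fold changes from -0.26 to 0.19. Of the 5 windows of CDC6, CDT1 and GMNN 0 were called (-0.08 to 0.17), and the same held for the 14 windows of the MCM2-7 ring (-0.15 to 0.07) and the 7 windows of MCM8, MCM9 and MCM10 (-0.02 to 0.17). In the group of CDC45, GINS, CDC7 and DBF4 the GINS3 window was the 1 called of 17, and the median of the group was -0.03. At lead windows the other 3 GINS genes had log2 fold changes of -0.03 (GINS1), -0.03 (GINS2) and 0.02 (GINS4), and GINS3 had 0.18. The fall at GINS3 was in a window other than its lead window. GINS2 and GINS4 had only 1 window each, so no such window was measured there. Whether GINS3 differed from the other 3 was not tested.

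At the fork, 0 of 14 windows of PCNA and the RFC loader (-0.25 to 0.12), 0 of 3 of the RPA genes (-0.02 to 0.03) and 0 of 7 of polymerase alpha-primase (-0.10 to 0.16) were called. The polymerase delta and epsilon genes had 0 called of 14 (-0.20 to 0.20) and FEN1 with LIG1 0 of 6. Among the lead windows alone, 0 of 45 were called lower or higher, with log2 fold changes from -0.15 (MCM3) to 0.18 (GINS3), and at an unadjusted p below 0.05 the count was 0 as well. As a summary per library, the mean of the 45 lead windows minus that of the other promoter windows was 1.48, 1.89 and 1.91 log2 units in control (lowest, median and highest) and 1.71, 1.88 and 1.99 in dTAGV-1. The groups overlapped, and the lowest value was that of control replicate 12, while the other 7 control libraries held 1.84 to 1.91.

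**Figure D4:**
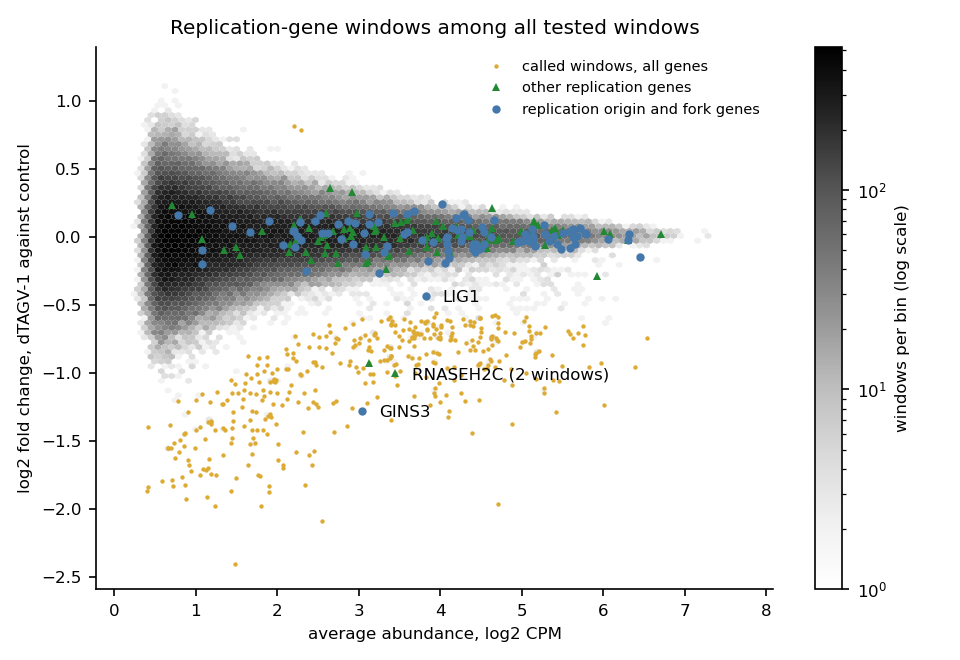
Log2 fold change of dTAGV-1 against control (vertical axis) by average log2 CPM (horizontal axis) for all tested windows in grey on a log scale of density, called windows in yellow, the windows of the 45 genes as blue circles and those of 42 other replication genes as green triangles, with 2 windows of MCM9 belonging to both. The circle of GINS3 at -1.28 and the triangles of RNASEH2C at -0.92 and -1.001 lie among the called windows, and the other symbols lie near 0.

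Short motifs were searched in the sequence of these promoters, with both strands read over the 401 bp of each window and a window counted once per motif. The E2F letters were in 29 of 101 windows, or 28.7%, belonging to 27 genes, against 4.63% of the 40300 promoter windows and 18.2% of the windows of the other replication genes. Windows with these letters had a median of 4.95 log2 CPM in control against 3.54 for those without, a description over windows of the same libraries. None of the 29 was called, and their median log2 fold change was -0.02, against 0.02 for the other 71. The CCAAT box of NFY (CCAAT) was in 43.6% against 33.1% of promoter windows, and the box CCGGAAG of ETS factors in 12.9% against 10.7%, with 45.5% and 13.1% in the other replication genes. The letters GGGCGG of SP factors were in 64.4% against 59.8%, and TTTGAA, the CHR element, in 16.8% against 14.4%, with 67.7% and 20.2% in the other replication genes. The ZNF143 core was in 2.97% against 1.39%, and the ACTACA element in 3.96% against 1.75%, which are 3 and 4 windows, with 1.01% and 4.04% in the other replication genes. None of these differences between sets was tested. The E2F letters can overlap GGGCGG, and the core can overlap the end of the ACTACA element. Median GC content was 63.3% in the tested windows of these genes and 62.8% in all tested promoter windows.

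The other genes of DNA replication were taken from a list of 42 by function, among them the subunits of ribonuclease H2, which removes RNA from DNA, the nucleotide supply genes TYMS, RRM1 and RRM2, and checkpoint and chromatin assembly genes. The list was drawn up with earlier results of these data known, and 2 of its 99 tested windows, at ASF1A, are also windows of MCM9. Of the 99, 2 were called lower, or 2.02%, against 0.213% of all tested and 0.561% of promoter windows, and 0 were called higher. Both belong to RNASEH2C and overlap each other, so they share counts and stand for 1 promoter, which is no result about the list. The median log2 fold change of the list was 0.0047. On chromosome 11 from 65720342 to 65720742 control libraries measured 2.95, 3.50 and 3.70 log2 CPM and dTAGV-1 libraries 1.74, 2.71 and 2.91, with no overlap between the groups. The log2 fold change was -0.92 (SE 0.15, edgeR adjusted p = 0.000137). On chromosome 11 from 65720626 to 65721026, which includes the start, control measured 1.85, 3.89 and 4.21 and dTAGV-1 1.93, 2.95 and 3.29, a log2 fold change of -1.001 (SE 0.17, edgeR adjusted p = 0.000645). Here the groups overlapped through control replicate 12 alone, the other 7 control libraries holding 3.67 to 4.21.

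The ACTACA element occurs in the RNASEH2C window over the start and in the flanking one, on chr11:65720865-65720894 (minus strand) and chr11:65720188-65720217 (plus strand). The flanking window was not called, and the called window from 65720342 to 65720742 holds neither the element nor the shorter core. Both RNASEH2C sites are shown with the same element at LRWD1 and RNASEH2A, on chr7:102464872-102464901 (minus strand) and chr19:12806469-12806498 (plus strand), whose windows were not called.
RNASEH2C element: aaggggACTACACTTCCCgtgaagctccgc
RNASEH2C element: atcgggACTACAGCTCCCgcccgcaccccc
LRWD1 element: gcgcggACTACAACTCCCagcggcccccac
RNASEH2A element: ttcgggACTACAATTCCCaggagggcgcac

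The flanking RNASEH2C window, on chromosome 11 from 65719823 to 65720223 in a coding exon, had a log2 fold change of 0.36 (SE 0.14) and did not pass the test (edgeR adjusted p = 1.00, unadjusted 0.0154). The difference between the called window with the smaller p and this flank had a control value of 0.99 ± 0.43 and a dTAGV-1 value of -0.23 ± 0.33 (SD, n = 8), a change of -1.23 (exact permutation test, two-sided, p = 0.000466, adjusted over the 3 pairs 0.000466). This pair was also chosen after its values had been seen, so the permutation p-value describes it only. The windows of LRWD1 and RNASEH2A that hold the ACTACA element had log2 fold changes of -0.01 and 0.05. The other window of the list with an unadjusted p below 0.05 lies near POLD4, named here after its value was seen, at 0.33 (SE 0.14). Whether the changes at RNASEH2C and GINS3 differ in size was not tested.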

How the data were processed

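The authors trimmed and aligned reads with cutadapt 1.8.1, Bowtie2 2.4.4 and SAMtools 1.9 on hg38, per the submitters' processing notes, while the peak caller, the counting tool and the treatment of the Tn5 offset are not given in the sources used here. The deposited table holds whole-number counts per 401 bp window for 16 libraries, not normalized, per the file headers, and also a −log10 q that the authors gave each window. The deposited summit list gives a −log10 score per summit. These −log10 values, both starting at 2.0, were not used as results.

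Windows were assigned to genes by GENCODE release 44. Members, gene lists and named windows were chosen with earlier results of these data known. The quasi-likelihood test of edgeR 4.0.16 in R 4.3.3 was run on the counts after filterByExpr and TMM scaling, without covariates, with Benjamini-Hochberg adjustment over 185040 windows and a threshold of 0.05. Log2 CPM used a prior count of 2, and standard errors were derived from the test statistic. The test was also run on simulated counts with known fold changes. Those counts had the same dispersion at every window and no flat libraries, so the run cannot show how the test behaves with such libraries. Values per library are given for called windows, for the 3 with the smallest p in each direction, for the 3 highest and 3 lowest lead windows and for windows with the ZNF143 core. Counts of same-group libraries differed by more than sampling noise in all 56 pairs (chi-square per degree of freedom 1.64 to 4.88), with the largest values in pairs with control replicate 12. This does not show that the libraries are separate cultures. All 16 libraries were counted. Alternatives were DESeq2 1.42.0, RLE scaling, other filters, a replicate block, libraries left out, other distances and other sets of transcript starts, the canonical start being added after the data were seen. The number of unused columns was 0. The value of 1 of the 9 genes listed for blood, liver and muscle is not reported here.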

Additional observations from a re-analysis of the deposited data

Results flagged for a closer look

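In 34 groups of 8 libraries, the gap between the most extreme library and the next was set against the spread of the whole group. Chance picks out about 1 in 20 groups, and 11 were picked out here, 9 of them for control replicate 12, the library with the lowest total and the flattest signal. The groups come from the same libraries and are not independent, so 1 unusual library can be picked out many times. At FEN1 this library measured 3.56 log2 CPM against 3.82 to 4.03 in the other control libraries. At the ORC4 window it measured 2.24 against 3.31 to 3.94. For the lead windows it measured 5.53 against 6.20 to 6.74 at MCM3, 5.03 against 6.16 to 6.54 at MCM9, 5.15 against 6.25 to 6.48 at RPA3 and 1.99 against 2.87 to 3.45 at CDT1. At RNASEH2C it measured 2.95 against 3.47 to 3.70 in the window from 65720342 and 1.85 against 3.67 to 4.21 in the window from 65720626. The mean of its lead windows minus other promoter windows was 1.48 against 1.84 to 1.91. The part of its depth and flat signal in these values was not tested.

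In the dTAGV-1 group, replicate 9 measured 0.89 log2 CPM at the called GINS3 window against 2.16 to 2.76 in the other 7 libraries. Its share of counts in the top decile, 46.3%, was within the range of the remaining libraries. At the ORC6 window, dTAGV-1 replicate 11 measured 2.49 against 2.99 to 3.42.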

How the results depend on the processing

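GINS3 stayed called lower under each of its 22 alternatives, with log2 fold changes from -1.38 to -1.15 and adjusted p-values up to 1.48e-05. Both RNASEH2C windows stayed called lower under theirs, and 0 windows of either gene list were called higher in any. The 45 genes had 2 windows called lower with a minimum count of 30, with the replicate block and without replicates 11 and 12, and 0 over lead windows alone, where the GINS3 window is left out by construction. The other list had 1 over lead windows. Over all windows, 742 lower and 11 higher were called with the replicate block, and 767 and 14 without replicates 11 and 12. Higher calls were 4 with DESeq2 and 5 with a minimum count of 30. With 1 library left out, lower calls ran from 318 to 627 and higher calls from 0 to 5, the most in both without control replicate 12. The cause was not tested. The median log2 fold change of the 45 genes ran from -0.064 to 0.047 over all alternatives.

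At windows that were not called, small changes took the other sign: at MCM9 0.0045, 0.011, 0.0042, 0.036 and 0.048 without control replicates 10, 13 and 14 and dTAGV-1 replicates 11 and 12 (-0.13 to 0.048 over all), and at RPA3 -0.075, -0.026 and -0.0019 without control replicate 12 and dTAGV-1 replicates 13 and 15 (-0.075 to 0.089 over all). At the PRIM1 window with the core it was -0.011 without replicates 11 and 12 of both groups, and -0.00092, -0.0016, -0.027 and -0.087 without control replicates 9 and 16 and dTAGV-1 replicates 11 and 13 (-0.087 to 0.096 over all).

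The labels do not say that a replicate number marks a shared day or culture, so the block was kept as an alternative. Deviations of same-numbered libraries correlated at 0.028 to 0.336, over 0.1 in 5 of 8 pairs, and these 5 numbers correlated best with their own, a hint of pairing from the data and not from the design. With the replicate block the GINS3 log2 fold change stayed called, and LIG1 was called lower at -0.43 with an adjusted p of 0.0112, its dTAGV-1 library being below the same-numbered control library in 8 of 8 numbers.

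Windows of these genes held 12.4 to 760 counts per library on average, with the widest intervals at the 4 windows of lowest count, and windows at starts shared with other genes cannot be assigned to 1 of them.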
